A study of Mus musculus with 6 samples.

Results

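The solute carriers are the membrane proteins that move amino acids, sugars, metals, nucleosides, vitamins and inorganic ions across cell and organelle membranes, and their genes carry systematic names of the form Slc, a family number, the letter a and a member number. Members were the genes on the array whose symbol has that form, without Slc4a1 (band 3), Slc11a2, Slc25a37 and Slc40a1, which carry anions or iron and were left out by the rule. A probe had to be detected, with a detection p-value under 0.05, on at least 3 of the 6 arrays, and a symbol with several such probes was represented by the one with the highest mean signal. The table held 308 solute carrier symbols on 538 probes; 168 probes passed, and they gave 120 members among 11562 tested genes. The symbol form also takes in Slc4a1ap, Slc7a6os and Slc9a3r1, genes named after a carrier that are not carriers themselves. They were kept as a group of their own.

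The members were described in Ter119+ cells, a red cell lineage fraction marked by a glycophorin-associated surface protein, from the bone marrow of C57BL/6 mice. The 3 wild type mice were labelled wildtype and the 3 knockout mice were labelled mDia2 KO, and all 6 were 4 months old. mDia2 is a formin, a protein that builds straight actin filaments, encoded by Diaph3. The series describes the knockout as conditional; the promoter or cell type that drove the deletion was not given in the sources used here. RNA of each mouse was read on 1 Illumina bead array.

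A developing red cell makes hemoglobin in bulk, which requires amino acids for globin, glycine and iron for heme, and the passage of glycine and iron into the mitochondrion. Glycine enters the cell through carriers such as the Slc6a9 protein and the mitochondrion through the Slc25a38 protein, where the first enzyme of heme synthesis uses it. The mature red cell keeps carriers for nucleosides, urea, amino acids and ions in its membrane, and some of them are blood group antigens in humans.

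The promoter sequences of 4 members are shown because they span the range found: the member with the highest wild type signal and, among the 11 bright members, the most matches to a KLF-type element, the second brightest member with no such match, and the 2 carriers with the smallest unadjusted p among amino acid carriers that were brighter in the knockout. Each runs 5′ to 3′ from 250 bases before to 50 bases after the start of the gene in RefSeq (GRCm38.p6). Capitals mark matches on either strand to AGATAA or TGATAA, the letters bound by GATA factors, or to CCNCNCCC, the letters bound by KLF factors; neighbouring matches can overlap. The Slc38a5 window (chrX:8271131-8271430, plus strand) held 10 KLF-type matches, some of them overlapping, the Slc25a5 window (chrX:36795347-36795646, plus strand) held 1 GATA-type match, and the Slc43a1 window (chr2:84840073-84840372, plus strand) and the Slc16a10 window (chr10:40142205-40142504, minus strand) held 1 KLF-type match each.
Slc38a5: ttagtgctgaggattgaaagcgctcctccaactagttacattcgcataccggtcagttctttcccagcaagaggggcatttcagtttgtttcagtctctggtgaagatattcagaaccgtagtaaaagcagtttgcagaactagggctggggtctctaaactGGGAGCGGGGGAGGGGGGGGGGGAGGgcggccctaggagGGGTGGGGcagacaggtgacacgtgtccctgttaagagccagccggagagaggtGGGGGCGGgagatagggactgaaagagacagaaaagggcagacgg
Slc25a5: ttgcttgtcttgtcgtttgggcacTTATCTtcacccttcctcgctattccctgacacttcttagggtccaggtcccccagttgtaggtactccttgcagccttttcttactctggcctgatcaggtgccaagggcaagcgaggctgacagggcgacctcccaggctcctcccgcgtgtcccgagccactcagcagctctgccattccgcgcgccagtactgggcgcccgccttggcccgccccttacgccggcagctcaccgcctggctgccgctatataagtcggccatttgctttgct
Slc43a1: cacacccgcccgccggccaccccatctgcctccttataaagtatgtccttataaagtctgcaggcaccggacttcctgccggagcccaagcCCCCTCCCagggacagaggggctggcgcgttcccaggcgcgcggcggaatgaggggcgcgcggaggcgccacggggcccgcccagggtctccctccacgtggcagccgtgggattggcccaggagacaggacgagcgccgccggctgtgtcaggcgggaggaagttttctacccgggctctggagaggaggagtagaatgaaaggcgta
Slc16a10: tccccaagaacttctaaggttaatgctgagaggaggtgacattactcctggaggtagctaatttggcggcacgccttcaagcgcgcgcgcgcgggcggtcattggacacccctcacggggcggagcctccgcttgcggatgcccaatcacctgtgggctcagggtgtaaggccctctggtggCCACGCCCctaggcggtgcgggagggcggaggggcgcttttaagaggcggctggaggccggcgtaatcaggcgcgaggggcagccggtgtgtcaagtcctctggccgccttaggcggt

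RefSeq windows were found for 91 of the 120 members, 121 windows in all, since a gene can have several starts. CCNCNCCC was present in 80.2% of them, in 67.4% of the 7344 windows of tested genes and in 49.5% of all 32851 windows of this length. AGATAA or TGATAA was present in 10.7% of the members' windows, 10.6% of those of tested genes and 18.6% of all windows. The median share of G and C was 60.7% in the windows of members and of tested genes and 52.7% in all windows. A match is a run of letters, not a bound site, and factor binding was not measured here.

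The targeted gene was lower in every knockout mouse. Diaph3, listed as Diap3, had signals of 1045, 965 and 969 in wild type mice against 574, 341 and 486 in knockout mice, a log2 change of -1.12 (SE 0.18) with a limma adjusted p of 0.0917. Between 14815 and 16951 probes were detected per array, and 15 erythroid markers had summed signals of 193553 to 210273 in the wild type mice and 214263 to 223339 in the knockout mice. Log2 changes are given as knockout minus wild type, and over all tested genes they were shifted to a median of -0.11, with 81.2% below 0. Quantile normalization brought that median to 0.01 and centring each array to 0.07. Of the 15 erythroid markers, 2 lay below 0. Markers of most other blood cell types examined were lower in the knockout fraction. All 15 detected neutrophil markers of 17 in the table lay below 0, with summed signals of 37921 to 54295 in the wild type mice and 15212 to 26752 in the knockout mice; Mmp8 and Itgam were not detected. All 11 detected monocyte and macrophage markers of 13 lay below 0, with sums of 10594 to 27085 against 4660.0 to 10018; Ccr2 was not detected. All 7 detected B cell markers of 10 and all 7 detected megakaryocyte and platelet markers of 9 also lay below 0. The 3 detected T and NK cell markers of 9 were Nkg7 at -0.59, Cd3e at -0.04 and Lck at -0.02. The part of these cells in the carrier signals was not tested, and fewer cells of a type cannot be told apart from less RNA per cell.

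No solute carrier passed the test between the groups. At a limma adjusted p under 0.05, 0 of the 120 members were called lower and 0 higher, beside 0.104% of all tested genes called lower and 0.0% called higher. The smallest adjusted p among members in limma was 0.125, for Slc6a6. At an unadjusted limma p under 0.05, 19 members (15.8%) were lower in the knockout and 3 (2.5%) higher, against 18.6% and 1.3% of all tested genes. In 19 members (15.8%) every knockout signal lay below every wild type signal, against 23.2% of all tested genes, and in 2 members (1.67%) every knockout signal lay above, against 2.02%. The members' median log2 change was -0.10, which is 0.01 relative to the median of all tested genes, and 98 of 120 (81.7%) lay below 0. These shares and the median are near those of all tested genes. Scaling moved the balance: after quantile normalization 7 members were lower and 13 higher at an unadjusted limma p under 0.05, against 7.83% and 7.36% of all tested genes. After centring 4 were lower and 16 higher, against 5.78% and 11.8%, and after neqc background correction 9 were lower and 9 higher, against 7.81% and 7.37%.

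The size of change that the arrays could resolve was limited. The median standard error of a member's log2 change was 0.10, and its 95% interval extended by a median of 0.24 to each side. Log2 changes ran from -0.72 for Slc6a6 to 0.64 for Slc15a2, and 5 members lay beyond 0.5 in either direction. No background had been subtracted from the signals, so the change of a dim probe is understated.

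**Figure D1:**
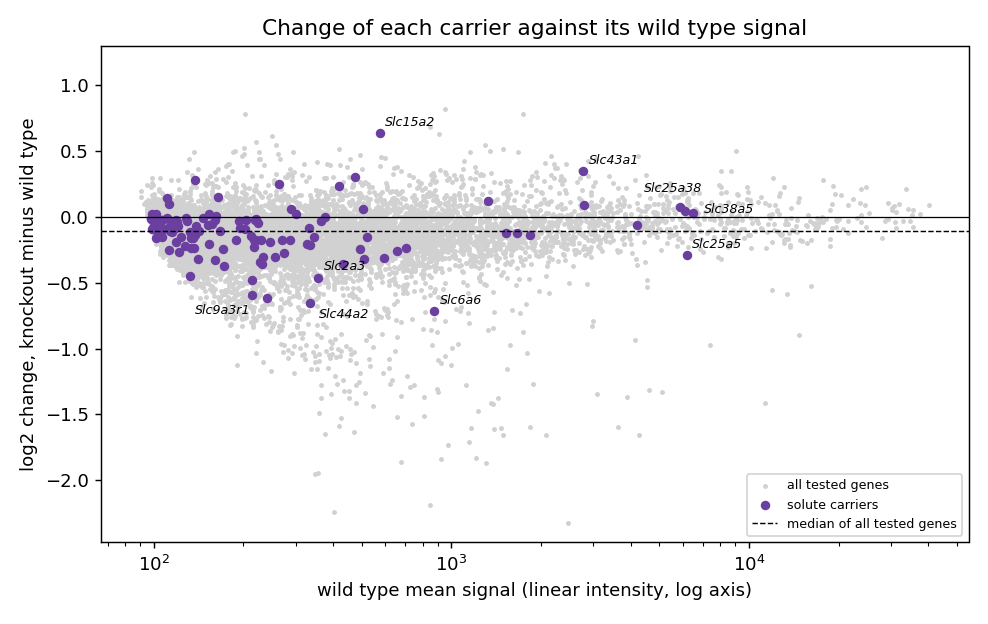
Log2 change, knockout minus wild type, against the wild type mean signal (linear intensity, log axis) for all 11562 tested genes in grey and the 120 solute carriers in purple, with the median of all tested genes as a dashed line. The carriers lay within -0.72 and 0.64 and spread around the dashed line, with Slc6a6 lowest and Slc15a2 highest.

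By wild type signal, the members fell into a few bright probes and many dim ones. The median wild type signal of a member was 169, against 187 over all tested genes; 51 members lay under 150, 58 between 150 and 1000, and 11 at 1000 or more. Order of probe signal is not order of transcript amount, since probes differ in how well they hybridise. The 11 bright members had a median log2 change of 0.03, with 5 below 0, against -0.07 over 1432 tested genes in the same signal range; the median of the middle range was -0.17 for members and for all genes alike, and that of the dim range was -0.08 against -0.07.

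The 4 brightest members were not separable in the wild type mice. Slc38a5 (6200.1 to 6836), Slc25a5 (5693 to 6663), Slc6a9 (5888 to 6253) and Slc25a38 (5381 to 6388) had overlapping ranges of signal over the 3 mice. Slc25a39 (3866 to 4449) lay below all 4 and above the next, and Slc11a1 (2507 to 2964) and Slc43a1 (2767 to 2786) overlapped each other.

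**Figure D2:**
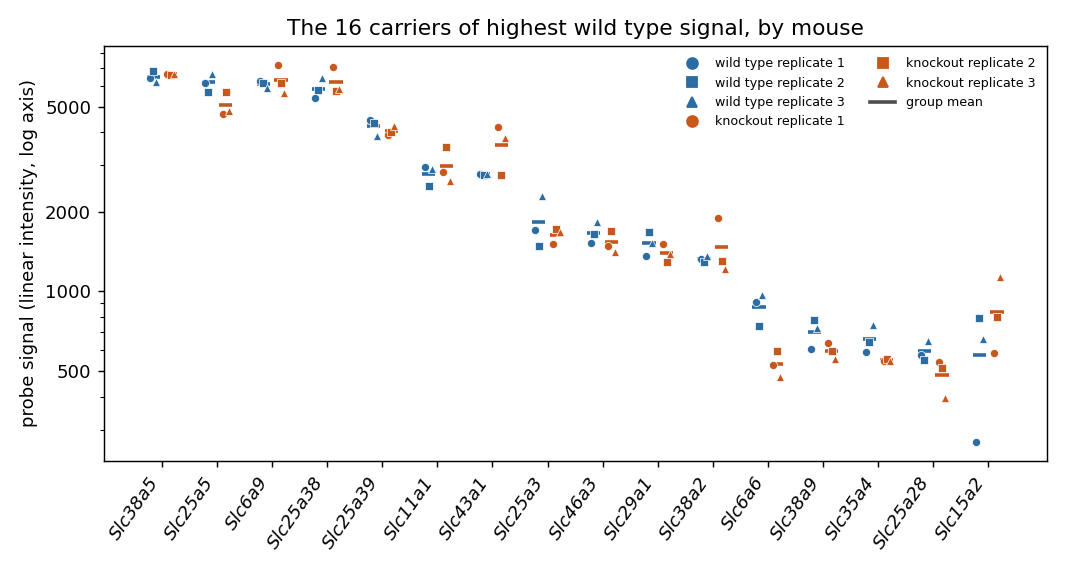
Probe signal (linear intensity, log axis) of the 16 carriers with the highest wild type mean, one point per mouse, wild type in blue and knockout in orange, bars for group means. In Slc25a5, Slc6a6, Slc35a4 and Slc25a28 the groups do not overlap, with the knockout mice lower; in Slc43a1, 2 of the 3 knockout mice lie above all wild type mice.

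Amino acid carriers held the brightest member and the lowest and some of the highest changes. Of 20 members, 12 lay below 0 and 8 above; at an unadjusted limma p under 0.05, 1 (5.0%) was lower and 2 (10%) were higher, against 18.6% and 1.3% of all tested genes. Their median log2 change was -0.03 as deposited, but 0.04 after quantile normalization and 0.15 after centring. Slc38a5, a sodium-coupled carrier of glutamine and other neutral amino acids, had signals of 6403, 6836 and 6200.1 in wild type mice against 6635, 6586 and 6619 in knockout mice. The groups overlapped, the log2 change was 0.03 (SE 0.07), and the 95% interval ran from -0.14 to 0.20. Slc6a9, the glycine transporter GlyT1, had signals of 6253, 6145 and 5888 in wild type mice against 7197, 6116 and 5646 in knockout mice, and the groups overlapped with a log2 change of 0.05 and an interval of -0.19 to 0.28. Slc38a2, a second neutral amino acid carrier of the same family, had signals of 1325, 1289 and 1362 in wild type and 1888, 1298 and 1215 in knockout mice. Only knockout replicate 1 lay above the wild type mice in this carrier.

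Slc6a6, the taurine transporter, had the lowest change and the smallest p of all members. Its signals were 914.1, 738 and 971 in wild type mice against 526, 593 and 473 in knockout mice. Every knockout mouse lay below every wild type mouse, and the group means of 874 ± 121 and 531 ± 60.1 (SD, n = 3 each) gave a log2 change of -0.72 (SE 0.13), or 1.64-fold lower. The change did not pass in limma (adjusted p = 0.125). It passed with array weights, without knockout replicate 2, and without the 2 arrays of lowest weight, at limma adjusted p-values of 0.0358, 0.0426 and 0.0127 in that order. It did not pass under the other alternatives, where the limma adjusted p was as high as 0.478, without knockout replicate 3.

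Slc43a1 and Slc16a10, both carriers of large neutral amino acids, had higher mean signals in the knockout, and neither passed after adjustment. Slc43a1 (LAT3, a carrier of leucine and its relatives) had signals of 2786, 2767 and 2778 in wild type mice against 4199, 2764 and 3814 in knockout mice. The wild type mice lay close together, knockout replicates 1 and 3 lay above them, and knockout replicate 2 lay level with them. The log2 change was 0.35 (SE 0.15), with an unadjusted p of 0.0461 and an adjusted p of 0.258 in limma. A second, dimmer Slc43a1 probe showed the same order of knockout mice, at 2157, 1410.2 and 1964 against 1604, 1614 and 1469.7 in the wild type mice.

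Slc16a10 (TAT1) carries the aromatic amino acids. Its signals were 503, 436 and 481 in wild type mice against 654, 497 and 612 in knockout mice, and knockout replicate 2 lay within the wild type range. The log2 change was 0.30 (SE 0.12), with a limma adjusted p of 0.233. Another probe of the same gene, listed under the older name 2610103N14Rik, had 281, 270.0 and 275 in wild type and 354, 353 and 313 in knockout mice. On that probe all knockout mice lay above all wild type mice, with a log2 change of 0.30 (SE 0.08) and a limma adjusted p of 0.18.

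Knockout replicate 2 also set the spread in other amino acid carriers. Slc3a2, the heavy chain that partners several light-chain carriers at the surface, had signals of 279, 245 and 267 in wild type and 381, 258 and 314 in knockout mice, and Slc1a5 (ASCT2, a glutamine carrier) had 164, 162 and 167 against 206, 149.7 and 197. In both, knockout replicates 1 and 3 lay above the wild type mice, and replicate 2 did not. Slc7a7, the light chain y+LAT1 that exports cationic amino acids, had a log2 change of -0.21.

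Mitochondrial carriers of the Slc25 family were the largest group. Of 26 members, 22 (84.6%) lay below 0, against 81.2% of all tested genes, and 4 (15.4%) were lower at an unadjusted limma p under 0.05, against 18.6%. In 6 (23.1%) every knockout signal lay below every wild type signal, against 23.2% of all tested genes, so none of these shares sets the group apart. Their median log2 change was -0.14 as deposited, and its sign turned after quantile normalization (0.02) and centring (0.03). Slc25a5, the ADP/ATP carrier ANT2, had signals of 6159.7, 5693 and 6663 in wild type mice against 4693, 5671 and 4794 in knockout mice. The groups did not overlap, though wild type replicate 2 and knockout replicate 2 lay close together. The log2 change was -0.29 (SE 0.10) and the limma adjusted p was 0.212.

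The 2 bright mitochondrial carriers tied to heme and glutathione lay near 0. Slc25a38, which brings glycine into the mitochondrion for heme synthesis and whose human gene is mutated in congenital sideroblastic anemia, had signals of 5381, 5763 and 6388 in wild type mice against 7042, 5716 and 5805 in knockout mice. The log2 change was 0.08 with a 95% interval of -0.17 to 0.33, and the groups overlapped. Slc25a39, a mitochondrial glutathione carrier, had signals of 4449, 4317 and 3866 in wild type and 3899.8, 4019 and 4209.8 in knockout mice, a log2 change of -0.06 with an interval of -0.25 to 0.13. Slc25a3, the phosphate carrier, had 1708, 1485 and 2297 in wild type and 1515, 1728 and 1675 in knockout mice, and the 3 knockout mice lay inside the wild type range.

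The other mitochondrial members with a small p were lower and mostly dim. Slc25a28 (mitoferrin 2, an iron carrier) had signals of 576, 552 and 649 in wild type mice against 538, 512 and 393 in knockout mice, without overlap and with a log2 change of -0.31. Slc25a33, a carrier of pyrimidine nucleotides, had 127, 116 and 121 in wild type and 97.0, 105 and 101 in knockout mice, also without overlap, and a log2 change of -0.26. Its knockout signals lay close to the lowest detected signals of the arrays, which were 97.1 to 99.3 in the knockout mice. Slc25a45 had a log2 change of -0.48, and its groups overlapped. For these 3 members the unadjusted limma p was 0.0466, 0.0081 and 0.0421, and none passed after adjustment. For comparison, the excluded mitoferrin 1, Slc25a37, had a log2 change of -0.10.

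Carriers of zinc and other metals, copper carriers among them, mostly lay below 0. Of 19 members, 17 (89.5%) did, against 81.2% of all tested genes, and 5 (26.3%) were lower at an unadjusted limma p under 0.05, against 18.6%. The median log2 change was -0.14 as deposited and -0.03 after quantile normalization, and it turned to 0.04 after centring. Slc39a11 (ZIP11, a zinc importer) had signals of 162, 168 and 188 in wild type and 120.4, 154 and 127 in knockout mice, without overlap. Its log2 change was -0.37 (SE 0.11) with a limma adjusted p of 0.187. The other 4 were Slc39a6 (ZIP6) at -0.31, Slc39a7 (ZIP7, which releases zinc from the endoplasmic reticulum) at -0.36, Slc30a5 (ZnT5, which loads the secretory pathway with zinc) at -0.32, and Slc41a3 (a magnesium carrier) at -0.30. In all 4 of these the highest knockout signal, 225, 359, 468 and 249 in that order, was that of knockout replicate 2 and lay within the wild type range.

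Slc30a1 (ZnT1), the zinc exporter of the plasma membrane, had signals of 149, 131 and 159 in wild type mice against 162, 127 and 149 in knockout mice, a log2 change of -0.0049 with an interval of -0.27 to 0.26. The manganese exporter Slc30a10 had a log2 change of 0.06 and the zinc and manganese importer Slc39a8 of -0.08. Whether exporters and importers differed was not tested. Slc11a1 (NRAMP1), a metal carrier of the phagosomes of macrophages and neutrophils, was the brightest metal carrier, at 2964, 2507 and 2897 in wild type and 2824, 3515 and 2614 in knockout mice, with overlapping groups.

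All 7 carriers of sugars and sugar phosphates lay below 0, against 81.2% of all tested genes. In 4 of the 7 (57.1%) every knockout signal lay below every wild type signal, against 23.2% of all tested genes. Their median log2 change was -0.09 as deposited and -0.03 after quantile normalization, and it turned to 0.08 after centring. Slc2a3, the glucose transporter GLUT3, had signals of 361, 325 and 384 in wild type mice against 243, 305 and 233 in knockout mice. Every knockout mouse lay below every wild type mouse, with a log2 change of -0.46 (SE 0.12) and a limma adjusted p of 0.18. Slc45a4 had 161, 164 and 186 in wild type and 154, 139 and 139 in knockout mice, again without overlap. On 2 other Slc45a4 probes, listed under the older name 9330175B01Rik, the groups overlapped, with log2 changes of -0.14 and -0.11. The brighter of these had a wild type mean of 537, against 170 for the probe of the member. Slc2a6 (GLUT6), also without overlap, was detected on 4 arrays, only 1 of them from a knockout mouse. Its signals were 113, 102 and 180.5 against 91.0, 98.1 and 92.5, and wild type replicate 3 stood above the other mice. The remaining carrier without overlap was also dim, detected on 3 arrays with group means of 101 and 95.5. Slc2a4, the insulin-regulated GLUT4, had a log2 change of -0.03. Slc2a1 (GLUT1), the main glucose carrier of many cells, was detected on 2 arrays and was no member.

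**Figure D3:**
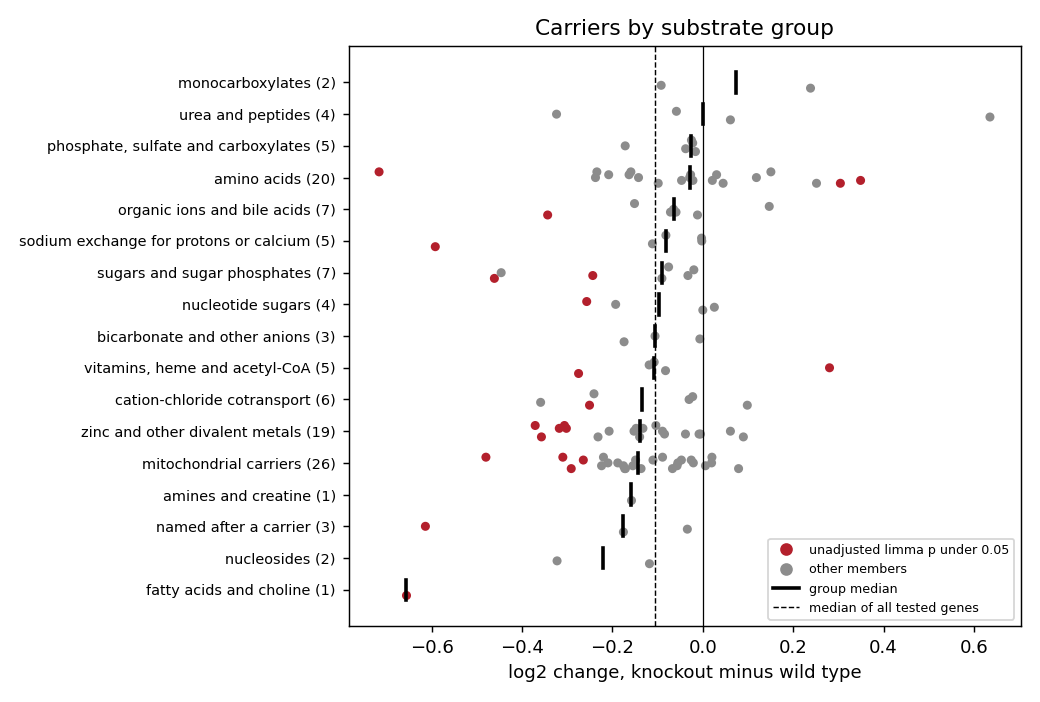
Log2 change, knockout minus wild type, of the 120 members by substrate group, with the number of members in parentheses; red points have an unadjusted limma p under 0.05, short bars are group medians and the dashed line is the median of all tested genes. The zinc group holds 5 red points and the mitochondrial group 4, all below 0, and the amino acid group holds 1 below and 2 above 0.

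Nucleoside and monocarboxylate carriers had 2 members each. Slc29a1 (ENT1), the equilibrative nucleoside carrier of the red cell membrane, had signals of 1359.6, 1672 and 1529 in wild type and 1516, 1293 and 1388 in knockout mice, with overlap and a log2 change of -0.12. Slc29a3 (ENT3), its lysosomal relative, was at -0.32, and wild type replicate 3 had the highest signal, 182 against 121 and 120.4 in the other wild type mice. Slc16a6, of the monocarboxylate family, had 469.6, 382 and 409 in wild type and 512, 528 and 446 in knockout mice; its log2 change of 0.24 had an unadjusted limma p of 0.0551, and 1 of its other 2 probes went the opposite way, at -0.11.

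Among carriers of vitamins, heme and acetyl-CoA, 1 was lower and 1 higher at a small p. Slc19a1, the reduced folate carrier, had signals of 303, 250.2 and 269.9 in wild type and 220.3, 246 and 213 in knockout mice, without overlap and with a log2 change of -0.27. Slc23a3, a relative of the ascorbate carriers, had 138, 146 and 130.2 in wild type and 160.1, 171 and 171 in knockout mice. All 3 knockout mice lay above the wild type mice, and the log2 change of 0.28 (SE 0.08) had an unadjusted p of 0.00708 and an adjusted p of 0.18 in limma. The lysosomal carrier Slc46a3 was the brightest of the group, at 1521, 1643 and 1822 against 1488, 1695 and 1412, with overlapping groups.

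**Figure D4:**
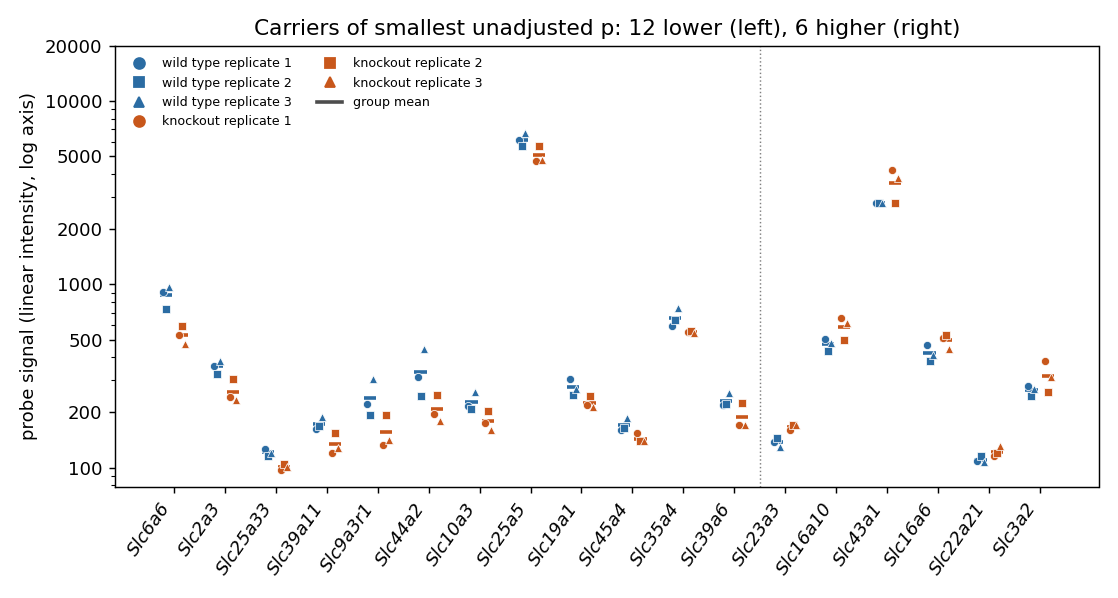
Probe signal (linear intensity, log axis) of the 12 carriers with the smallest unadjusted limma p among those lower in the knockout (left of the dotted line) and the 6 among those higher (right), one point per mouse and bars for group means. Knockout replicate 2, the orange square, is the highest knockout mouse in most of the carriers on the left and the lowest in Slc16a10, Slc43a1 and Slc3a2 on the right.

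Of the 4 peptide and urea carriers, 2 lay below 0 and 2 above. Slc15a2 (PEPT2), a carrier of dipeptides and tripeptides, had signals of 269, 794 and 661 in wild type mice against 583, 802 and 1130.5 in knockout mice. Wild type replicate 1 stood far below all other mice, the groups overlapped, and the highest log2 change of all members, 0.64, had a standard error of 0.41 and a 95% interval of -0.31 to 1.58. Slc14a1, the urea carrier that bears the Kidd blood group in humans, had 496, 475 and 546 against 555, 476 and 553 and a log2 change of 0.06. The lysosomal peptide and histidine carriers Slc15a3 and Slc15a4 were at -0.32 and -0.06.

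Most ion carriers lay below 0 as deposited, as did 81.2% of all tested genes. Of 6 cation-chloride cotransporters, 5 lay below 0; the median was -0.14 as deposited, close to 0 after quantile normalization at -0.0044, and 0.04 after centring. Slc12a2 (NKCC1), which brings in sodium, potassium and chloride, had signals of 219, 235 and 238 in wild type and 164, 239 and 148 in knockout mice. Knockout replicate 2 lay above all wild type mice and the other 2 knockout mice below them, and the log2 change was -0.36 (SE 0.17). The potassium-chloride cotransporter Slc12a4 (KCC1), which acts in red cell volume control, had a log2 change of -0.02. Slc12a9 was the one member whose probe was undetected on every array of a group. The knockout signals of that probe were 99.0, 92.1 and 90.8 and its wild type signals 105, 103 and 129.7. On it the wild type was at least 1.14-fold brighter, with measured means of 112 and 94.0. That probe passed the detection rule through the wild type arrays alone and so had to be lower in the knockout. Without Slc12a9, 18 of 119 members were lower at an unadjusted limma p under 0.05, and 18 had every knockout signal below every wild type signal. The shares of all tested genes, 18.6% and 23.2%, were not recounted without genes of this kind. A second Slc12a9 probe, detected on 3 arrays, had 99.3, 95.5 and 113 in wild type and 90.3, 98.6 and 95.6 in knockout mice. These signals overlapped, with a log2 change of -0.11. Slc12a1, the kidney cotransporter NKCC2, was the member of this group above 0, at 0.10 with a wild type mean of 113.

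The 5 sodium exchangers also lay below 0 as deposited, with a median of -0.08 that turned to 0.05 after quantile normalization and 0.09 after centring. Slc24a6, the mitochondrial sodium-calcium exchanger now named Slc8b1, was the lowest at -0.59 (SE 0.25). Its wild type signals were 169.8, 161 and 312 and its knockout signals 122, 167 and 122; wild type replicate 3 stood far above all other mice. Slc8a1 and Slc9a8, exchangers of calcium and protons for sodium, were at -0.11 and -0.08. The bicarbonate carriers Slc4a2 (AE2) and Slc4a7 had log2 changes of -0.17 and -0.11. The phosphate carrier Slc20a1 was at -0.02, the lysosomal sialic acid carrier Slc17a5 at -0.04 and the vesicular glutamate carrier Slc17a6 at -0.17.

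The remaining groups were small. Slc44a2, a choline transporter-like protein, had signals of 312, 245 and 446 in wild type and 195, 248 and 179.7 in knockout mice. The groups overlapped through wild type replicate 2 and knockout replicate 2, and the log2 change was -0.66 (SE 0.22) with a limma adjusted p of 0.199. Of 7 carriers of organic ions and bile acids, 6 lay below 0: Slc10a3 had 218, 209 and 257 against 175, 204 and 161 without overlap, and the ergothioneine carrier Slc22a4 had a log2 change of -0.15. Slc22a21, a carnitine carrier, was the second member with all knockout mice above all wild type mice, at 109, 115.7 and 107 in wild type and 116.3, 119.9 and 131 in knockout mice, a log2 change of 0.15 near the lower end of detected signals. Of the nucleotide sugar carriers, Slc35a4 had 590.0, 641 and 744 against 547, 556 and 543 without overlap, and Slc35a3 was at -0.19. Of the genes named after a carrier, the scaffold Slc9a3r1 (NHERF1) had 222, 193 and 306 in wild type and 133, 194 and 142 in knockout mice, with overlap and a log2 change of -0.61, and Slc4a1ap, an adaptor that binds band 3, was at -0.18.

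Most carriers known from red cell biology were detected. Of 29 such carriers, 21 were members, and 14 (66.7%) lay below 0, against 81.2% of all tested genes. At an unadjusted limma p under 0.05, 4 (19%) were lower (Slc2a3, Slc25a5, Slc19a1 and Slc25a28), against 18.6% of all tested genes, and 1 (4.76%, Slc43a1) was higher, against 1.3%. Their median log2 change was -0.02, against -0.11 over all tested genes, and their summed signal was 37149 to 37868 in the wild type mice and 35937 to 39615 in the knockout mice. Slc2a1, Slc7a1, Slc12a7, Slc16a1, Slc39a10 and Slc43a3 were in the table but did not pass the detection rule. The 4 carriers left out of the rule were at 0.02 for Slc4a1, 0.02 for Slc11a2, -0.10 for Slc25a37 and -0.30 for Slc40a1 (ferroportin, the iron exporter), whose knockout replicate 2 stood apart at 2026, 3673 and 1806.

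Carriers known from myeloid cells or platelets were mostly dim. Of 13, 6 were members: Slc2a6, Slc29a3, Slc7a7, Slc15a3, Slc11a1 and Slc15a4. Of these, 5 lay below 0 and Slc11a1 above, with a median of -0.27, and none passed an unadjusted p of 0.05. Their summed signal was 3143 to 3810.0 in the wild type mice and 3196 to 4210 in the knockout mice. Most of that sum was the bright Slc11a1 probe, with a wild type mean of 2789 against 132 to 160 for the others. The sum therefore cannot show how the dim carriers changed. The neutrophil and monocyte marker sums given above did not overlap between the groups. Most of the monocyte sum was Lyz, with a wild type mean of 11356. Taken singly, all 15 neutrophil markers but only 3 of 11 monocyte and macrophage markers were lower without overlap, beside 23.2% of all tested genes. In Slc2a6, Slc29a3, Slc7a7 and Slc15a3 wild type replicate 3 was the highest of all mice, and in Slc11a1 and Slc15a4 knockout replicate 2 was. Wild type replicate 3 was the highest of its group in 71.8% of all tested genes. It also had the highest neutrophil and monocyte sums. The part of myeloid cells in these carriers was not tested.

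Several carriers are listed under names outside the Slc scheme. Of 14 measured carriers and carrier partners of this kind, 8 lay below 0, with a median of -0.04. The 4 with the smallest p were Ucp2 (a mitochondrial carrier that loosens respiration from ATP synthesis), at 0.25 with 138, 163 and 147 against 202, 165 and 165; Emb (a partner of monocarboxylate carriers), at -1.03 with 181, 123 and 509 against 106, 131 and 95.7; Mtch1 (a mitochondrial outer membrane member of the Slc25 fold), at -0.35; and Aqp9 (a water and glycerol channel), at -0.17. None passed in limma, where the adjusted p was 0.272, 0.274, 0.299 and 0.324. In Emb, wild type replicate 3 stood far above all other mice.

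Where a member had several probes, they did not always move alike. Of 120 members, 88 had 1 detected probe under their symbol and 32 several. In 9 members the probes differed in sign, and in 2 of these, Slc11a1 and Slc15a2, by more than 0.5. A further 9 probes of members, listed under older names, were not counted here. The bright Slc11a1 probe was at 0.09, while its 3 dimmer probes were at -0.50, -0.28 and -0.29. The 2 brighter Slc15a2 probes were at 0.64 and 0.54 and shared the low wild type replicate 1, and the third was at -0.07. The other 7 were Slc14a1, Slc16a6, Slc25a24 (a mitochondrial ATP-magnesium carrier), Slc25a38, Slc30a10, Slc41a3 and Slc9a8. The 3 Slc25a38 probes were at 0.08, -0.11 and 0.0028, and those of Slc41a3 at -0.30, -0.08 and 0.09. Which exons the probes lie in was not analysed here.

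**Figure D5:**
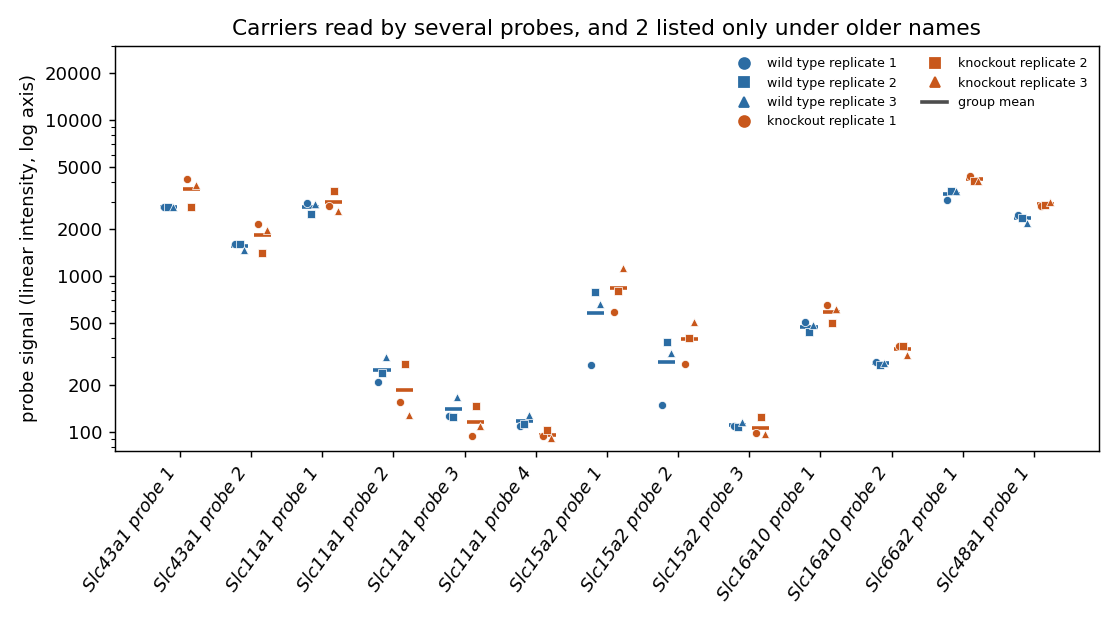
Probe signal (linear intensity, log axis) of every detected probe of Slc43a1, Slc11a1, Slc15a2 and Slc16a10, and of Slc66a2 and Slc48a1, which the table lists under older names; one point per mouse and bars for group means. Both Slc43a1 probes show the same order of knockout mice, the bright Slc11a1 probe differs from its dim ones, and the low wild type replicate 1 is shared by the 2 brighter Slc15a2 probes.

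The detection rule set the lower edge of the members. Of 120, 96 were detected on all 6 arrays, 10 on 4 or 5, and 14 on exactly 3, with Slc13a1 the dimmest member at a wild type mean of 98.0. Just outside, 11 symbols were detected on 2 arrays, among them Slc2a1 (mean signal 98.2), Slc16a3 (96.8), the lactate exporter MCT4, and Slc39a1 (98.5). A further 22 were detected on 1 array and 155 on none. Being undetected on a bead array does not show that a gene is not expressed.

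The mice differed among themselves across the whole array, the members included. Wild type replicate 3 was the highest of its group in 76 of 120 members (63.3%) and in 71.8% of all tested genes, and knockout replicate 2 was the highest of its group in 68 members (56.7%) and in 50.6% of all tested genes. Among the 19 members lower at an unadjusted limma p under 0.05, wild type replicate 3 was the highest wild type mouse in 17 and knockout replicate 2 the highest knockout mouse in 16. The same was not counted among all tested genes lower at such a p, so these counts do not set the carriers apart. Wild type replicate 3 and knockout replicate 2 also had the lowest weights when limma estimated array weights, 0.36 and 0.55. They had the highest neutrophil and monocyte marker sums of their groups. The part of those cells in the pattern was not tested. Without knockout replicate 2, 4 members passed: Slc6a6, Slc2a3 and Slc12a2 lower and Slc43a1 higher, against 1.18% and 0.138% of all tested genes. Without both arrays, an alternative chosen after the data were seen, 13 members passed, 11 lower and 2 higher, against 6.48% and 0.675% of all tested genes. The 2 higher members were Slc43a1 and Slc16a10, and Slc6a6 had the smallest adjusted p in limma, 0.0127. This left 2 mice per group.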

How the data were processed

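Trizol RNA was labelled with biotin through an Illumina amplification kit, per the labels' protocols, and read on 1 array per mouse. Signals are linear intensity values deposited by the authors with a detection p-value per probe and array, per the file headers. Scanning, background correction and normalization are steps not given in the sources used here; undetected probes had median signals of 86.7 to 89.5, so no background had been taken off. Both deposited tables were identical in all 45281 probes. The 2 lines without values were left out, and 54 symbols altered to dates or numbers stayed unnamed.

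Intensities were log2 transformed. The 15743 probes with a detection p under 0.05 on 3 or more arrays entered 1 two-sided fit of knockout minus wild type (limma 3.58.1, lmFit then eBayes, under R 4.3.3); p-values were adjusted by Benjamini-Hochberg over these probes and called under 0.05. Each symbol counted as a gene through its probe with the highest mean. Per the series design the replicates are biological, and the number of arrays limits the precision. The code was tested on simulated data.

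The members, gene lists and alternatives were chosen with earlier results of these data known. Named members were the 12 brightest in wild type, up to 12 of smallest p in each direction, the brightest and the 2 of smallest p in each substrate group of 3 or more, every detected member of the red cell and myeloid lists, those whose probes disagreed and those nearest the detection limit. Some of these are not reported here. Members at an unadjusted p under 0.05 beyond these were named after their values were seen. Groups shared replicate numbers. Deviations of same-numbered mice correlated at 0.22, -0.28 and -0.19 across probes, and those of unlike-numbered mice at -0.28 to 0.34. With 3 mice per group these correlations cannot decide whether mice were paired. The numbers were treated as names in the main fit. Promoter windows came from RefSeq (GRCm38.p6); no genome was used. Alternatives covered normalization, centring, background, the filter on dim probes, variance trend, array weights, a replicate block, a term for the animal number series, leaving out each mouse, averaging a symbol's probes and an added constant of 16.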

Additional observations from a re-analysis of the deposited data

How the results depend on the processing

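The count of members that passed was 0 as reported. With array weights it was 1 (Slc6a6, lower, limma adjusted p = 0.0358). Of all tested genes, 1.18% were then called lower and 0.112% higher. With 1 mouse left out the count of members was 0 to 4, the 4 without knockout replicate 2. It was 13 without the 2 arrays of lowest weight, an alternative chosen after seeing the data, and 0 under the other alternatives run. Members lower at an unadjusted limma p under 0.05 numbered 19 as reported, 7 after quantile normalization, 4 after centring, 9 after neqc background correction, 10 with the replicate block (8.33%, against 12% of all tested genes), 11 with a term for the animal number series (9.17%, against 13%) and 5 to 27 with 1 mouse left out (4.17% to 22.5%, against 9.3% to 23.7%). Of the latter, it was 9 if that mouse was wild type replicate 3, 7 if knockout replicate 1 and 5 if knockout replicate 3. Members higher at such a p numbered 3 as reported, 13 after quantile normalization, 16 after centring and 9 after neqc. They numbered 5 without the filter on dim probes (4.17%, against 0.837% of all genes then tested) and 5 with array weights (4.17%, against 2.58%). They numbered 7 without the 2 arrays of lowest weight (5.83%, against 3.12%). With 1 mouse left out they numbered 1 to 5 (0.833% to 4.17%, against 0.692% to 2.21% of all tested genes). Members with no overlap and a lower knockout numbered 19 as reported, 7 after quantile normalization (5.83%, against 9.31% of all tested genes), 3 after centring (2.5%, against 6.44%), 7 after neqc (5.83%, against 9.31%), 54 without the 2 arrays (45%, against 44%) and 20 to 50 with 1 mouse left out (16.7% to 41.7%, against 24.7% to 42.5%). Those with a higher knockout numbered 2 as reported, 12, 25 and 12 under the same scalings (10%, 20.8% and 10%, against 10.9%, 18% and 10.9%), 12 without the 2 arrays (10%, against 9.66%) and 3 to 7 with 1 mouse left out (2.5% to 5.83%, against 2.55% to 5.24%). A group of 2 mice separates from the other more readily than a group of 3. The members' median of -0.10 turned to 0.0187 after quantile normalization, 0.0796 after centring and 0.0235 after neqc, where the median of all tested genes turned to 0.01, 0.07 and 0.02, and ran from -0.14 to -0.07 with 1 mouse left out. Over the single members reported and the substrate groups, 1115 values kept their direction and side of the threshold or moved by less than the spread between mice, 195 moved by more and 16 passed the threshold under 1 alternative or another; the causes were not tested. The replicate block made no member pass, and its smallest limma adjusted p was 0.403, for Slc15a2.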

Other observations

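The table lists further carriers under names given before they joined the solute carrier scheme, so the rule did not take them. Through RefSeq synonyms, 25 tested probes matched 23 current Slc symbols, of which 16 were not members; 16 of the 25 probes lay below 0, and 0 passed in limma. The 2 brightest were higher in all 3 knockout mice than in any wild type mouse. Slc48a1, listed as 4930570C03Rik, carries heme out of lysosomes and endosomes; it had signals of 2460.0, 2367 and 2194 in wild type against 2828, 2860.4 and 3001 in knockout mice, a log2 change of 0.31 (SE 0.08) with a limma adjusted p of 0.18. Slc66a2, listed as Pqlc1, had signals of 3083, 3537 and 3523 in wild type against 4388, 4096 and 4095 in knockout mice, a log2 change of 0.31 (SE 0.08) with a limma adjusted p of 0.18. These 2 genes were singled out after their values were seen. Slc50a1, a sugar carrier listed as Rag1ap1, was lower without overlap at 138, 124 and 146 against 104, 122 and 113, a log2 change of -0.27.

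Slc7a7, Slc4a7, Slc7a8 and Slc25a30 lie on chromosome 14, as Diaph3 does, and had log2 changes of -0.21, -0.11, -0.16 and -0.15; none passed in limma, where the smallest adjusted p among them was 0.352.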
